A study of Mus musculus with 12 samples.

Results

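The mouse sirtuins are a family of 7 genes, Sirt1 to Sirt7, matched here by symbol. The rule uses no measured value, but the family was chosen with earlier results of these data known. All 7 symbols matched an Ensembl gene among the 48795 genes in the files, and all 7 passed the filter on low counts, which left 14838 genes. RNA came from C2C12 cells, a mouse myoblast line that fuses into myotubes when serum is reduced, after 5 days of differentiation. 12 libraries of poly(A)-selected RNA were sequenced as paired 100-base reads, 3 in each of the groups vehicle, gRc, H2O2 and gRc+H2O2. gRc is ginsenoside Rc, a saponin of ginseng. All 4 groups are listed with 0.02% DMSO. The vehicle group received it alone for 24 h, and the gRc group received 10 µM gRc for 24 h. The H2O2 group received vehicle for 18 h and then 0.25 mM H2O2 for 6 h, and the gRc+H2O2 group received 10 µM gRc for 18 h before the same H2O2 (a tag on these libraries gives 24 h of gRc). Every group is the same cell line in one culture format, and no label states that replicates came from separate cultures. The p-values therefore reflect variation from library to library, part of which may be technical. The tag for cell type reads myoblasts, yet 5 markers of differentiated muscle (Myh3, Acta1, Ckm, Myog and Mymk) summed to between 9610 and 10410 CPM (counts scaled to library size) in the libraries without H2O2 and to between 6771 and 7920 CPM in those with it. Averaged over both backgrounds, 1 of these 5 passed edgeR's test for H2O2, Myh3, which fell by 0.71 on the log2 scale (adjusted p = 0.0326). 5 markers of cycling myoblasts summed to between 174 and 288 CPM without H2O2 and to between 157 and 195 CPM with it, and 2 of them fell, Pax7 by 1.21 (adjusted p = 0.000207) and Mki67 by 0.75 (adjusted p = 0.039). 4 fibroblast-like markers summed to between 3645 and 25319 CPM without H2O2 and to between 3589 and 9887 CPM with it, and 1 of them fell, Pdgfra by 0.53 (adjusted p = 0.0214). None of the 3 adipocyte-like markers passed the filter. Of all tested genes, 31% passed the same averaged test (14.6% higher and 16.4% lower). In bulk RNA, fewer cells of a type cannot be told apart from less RNA per cell, and the part of these marker levels in the H2O2 results was not tested.

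Sirtuins remove acyl groups from lysines and consume NAD+ in each cycle, which ties their activity to the energy state of the cell. SIRT1, SIRT6 and SIRT7 act mainly in the nucleus (SIRT7 in the nucleolus), SIRT2 mainly in the cytosol, and SIRT3, SIRT4 and SIRT5 in mitochondria. In skeletal muscle SIRT1 is best known for deacetylating the coactivator PGC-1α and the myogenic factor MyoD, and SIRT3 for deacetylating the antioxidant enzyme SOD2. The question put to these data was whether the RNA of any family member differed with H2O2, with gRc, or with gRc before H2O2.

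The start regions of 3 members are shown because they hold the E-box and the site of nuclear respiratory factor 1, the latter read by a protein whose gene is among the results. The RefSeq tables of the GRCm38.p6 assembly gave 9 promoters of 300 bases for the 7 genes (250 bases before the start and 50 after it). 8 strings were searched on both strands. These were the E-box CACGTG, the nuclear respiratory factor 1 site GCGCATGCG, the ETS family site CCGGAAG, the GC box of SP1-type factors GGGCGG and the CCAAT box. The others were the cyclic AMP response element TGACGT, the core of the NFE2L2 site TGACNNNGC and the composite site of ATF4 TGATGNAA. Sirt1 starts on the minus strand at chr10:63338986-63339285 and Sirt6, of whose 2 promoters the one with the site is shown, on the minus strand at chr10:81627517-81627816, and Sirt7 starts on the minus strand at chr11:120624965-120625264. Capitals mark CACGTG in Sirt1 and GCGCATGCG, read on either strand, in Sirt6 and Sirt7.
Sirt1: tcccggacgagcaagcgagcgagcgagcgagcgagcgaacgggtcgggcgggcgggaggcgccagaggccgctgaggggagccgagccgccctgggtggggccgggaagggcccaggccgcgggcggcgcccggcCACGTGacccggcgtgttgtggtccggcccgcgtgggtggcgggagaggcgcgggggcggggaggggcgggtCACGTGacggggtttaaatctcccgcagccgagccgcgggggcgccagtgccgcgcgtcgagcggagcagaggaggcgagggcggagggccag
Sirt6: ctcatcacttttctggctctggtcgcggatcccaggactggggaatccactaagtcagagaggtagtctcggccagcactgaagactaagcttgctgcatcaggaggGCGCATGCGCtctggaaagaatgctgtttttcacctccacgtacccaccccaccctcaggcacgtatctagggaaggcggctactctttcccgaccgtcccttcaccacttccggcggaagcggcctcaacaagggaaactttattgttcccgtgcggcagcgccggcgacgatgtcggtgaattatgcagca
Sirt7: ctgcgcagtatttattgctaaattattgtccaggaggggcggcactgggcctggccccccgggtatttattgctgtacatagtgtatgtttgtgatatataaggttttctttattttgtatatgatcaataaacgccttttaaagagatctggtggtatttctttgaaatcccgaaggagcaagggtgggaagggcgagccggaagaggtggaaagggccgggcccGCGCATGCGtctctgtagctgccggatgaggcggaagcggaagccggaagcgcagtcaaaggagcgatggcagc

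The Sirt1 promoter was 79.0% G or C, against a median of 52.7% over 32841 mouse promoters of the same length, and held CACGTG at 2 places, beginning at -115 and -43 from the start. CACGTG, the E-box read by MYC, USF and TFE-type factors, was in 7.15% of all promoters and in none of the other 8 sirtuin promoters. The same promoter held GGGCGG at 7 places, a string found in 35.7% of all promoters, and 1 match of TGACNNNGC that overlapped the E-box at -115. GGGCGG was also in Sirt2, Sirt5, Sirt7 and 1 of the 2 promoters of Sirt3 (4 places) and of Sirt6, and TGACNNNGC also in Sirt7 and the other Sirt3 promoter. GCGCATGCG, the site of nuclear respiratory factor 1, was in 1.75% of all promoters. It occurred in Sirt6 as 2 overlapping matches on opposite strands and in Sirt7 as 1 match beginning at -24. The ETS site, present in 8.86% of all promoters, was in Sirt6, Sirt7 and 1 of 2 Sirt3 promoters, and the CCAAT box (37.4%) in Sirt2, Sirt5 and the other Sirt3 promoter. The NFE2L2 core was in 12.4% of all promoters. TGACGT (7.51%) and TGATGNAA (3.97%) were found in none of the 9. These are matches of letters in a fixed window and not measured binding.

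Per transcript length, the deposited TPM (abundance per transcript length, scaled by RSEM to the same total in every library) placed Sirt2 highest with a mean of 62.4 TPM over the 12 libraries. Sirt1 followed at 51.4 TPM, Sirt7 at 36.8, Sirt6 at 21, Sirt4 at 19.5, Sirt3 at 7.98 and Sirt5 at 5.09 TPM. Several neighbours in this order were not separated by their spread. Sirt2 exceeded Sirt1 in 7 of 12 libraries, Sirt1 exceeded Sirt7 in 7 of 12 and Sirt6 exceeded Sirt4 in 9 of 12. Sirt2 exceeded Sirt7 in 11 of 12 and Sirt3 exceeded Sirt5 in 11 of 12, whereas Sirt7 exceeded Sirt6, and Sirt4 exceeded Sirt3, in all 12. Sirt3 and Sirt5, whose products are mitochondrial, thus had the lowest mean TPM of the family. By group means of TPM, Sirt1 ranked 3 of 7 in vehicle and in gRc and 1 of 7 in H2O2 and in gRc+H2O2. The TPM of Sirt1 was lowest in the third vehicle library (8.47) and highest in the first (91.9), a 10.8-fold range within untreated cells, while its CPM ranged 3.66-fold over all 12 libraries. With CPM per kilobase of each gene's longest coding transcript in place of TPM, a choice made after seeing the data, Sirt7 stood above Sirt1 and the other 5 ranks were as before. By that measure Sirt2 exceeded Sirt1 in 12 of 12 libraries, so Sirt1 ranked first in no library. Sirt1 then exceeded Sirt7 in 0 of 12 and Sirt6 in 6 of 12.

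**Figure D1:**
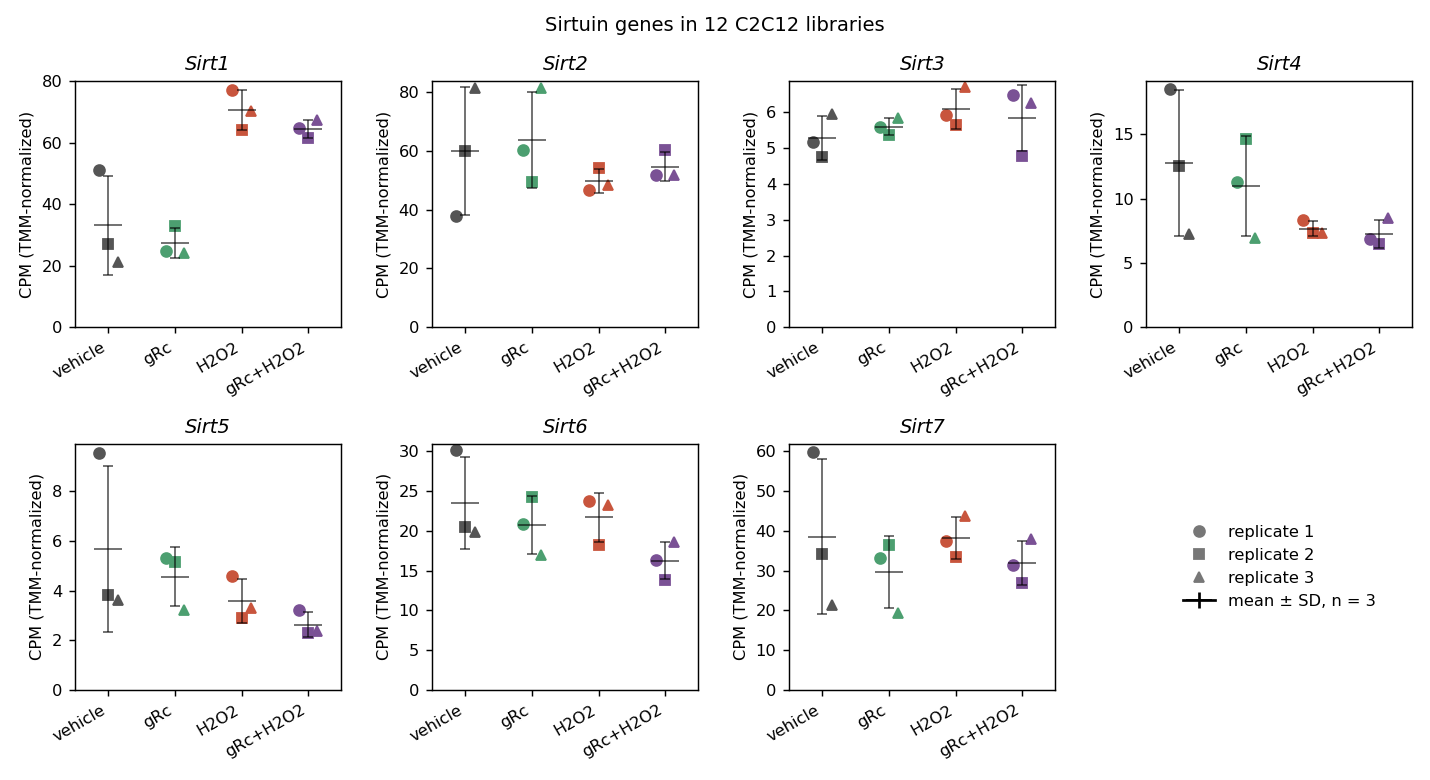
TMM-normalized CPM of the 7 sirtuin genes in each of the 12 libraries, by group, with symbols for replicates and bars for the group mean ± SD (n = 3). The 6 libraries with H2O2 lie between 61.5 and 77.1 CPM for Sirt1, above all 6 without it (21.1 to 51.3 CPM), and no other gene has both peroxide groups apart from both groups without peroxide.

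Sirt1 RNA was higher after H2O2, with and without gRc, and it was the only family member to pass the test in any comparison. Sirt1 encodes the nuclear NAD+-dependent deacetylase that acts on p53, FOXO factors and PGC-1α. It stood at 51.3, 27.0 and 21.1 CPM in vehicle replicates 1, 2 and 3 and at 77.1, 64.2 and 70.4 CPM in the H2O2 replicates. In gRc it stood at 24.9, 33.0 and 24.2 CPM and in gRc+H2O2 at 64.9, 61.5 and 67.4 CPM. The groups did not overlap in either background, and vehicle replicate 1 was the highest of the libraries without H2O2. The group means were 33.1 ± 16 CPM in vehicle and 70.6 ± 6.48 CPM in H2O2 (SD, n = 3), a ratio of 2.13, and 27.4 ± 4.88 CPM in gRc and 64.6 ± 2.94 CPM in gRc+H2O2, a ratio of 2.36. By edgeR's quasi-likelihood test, with Benjamini-Hochberg adjustment over 14838 genes, the log2 fold change of Sirt1 was 1.09 (SE 0.28, adjusted p = 0.0216) for H2O2 against vehicle. It was 1.24 (SE 0.28, adjusted p = 0.0124) for gRc+H2O2 against gRc. Averaged over both backgrounds it was 1.17 (SE 0.20, 95% interval 0.74 to 1.60, adjusted p = 0.0011), higher in 6 of 6 libraries than in any without H2O2. In the same averaged test, 1 of 5 muscle, 2 of 5 cycling myoblast and 1 of 4 fibroblast-like markers were lower, beside 16.4% of all genes. The part of these markers in the Sirt1 difference was not tested.

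The 1 call among 7 members is to be read against the whole transcriptome. Genes that passed made up 15.7% of all tested genes for H2O2 against vehicle (7.81% higher and 7.84% lower), 15.7% for gRc+H2O2 against gRc (7.57% higher and 8.15% lower) and 31% for the average (14.6% higher and 16.4% lower). Groups without overlap were found for 31.1% of genes in H2O2 against vehicle, for 38.7% in gRc+H2O2 against gRc, and for 20.5% when all 6 libraries with H2O2 were set against the 6 without. The Sirt1 call against vehicle depended on single libraries. It was lost at a log2 fold change of 1.08 (adjusted p = 0.113) when only those 6 libraries were fitted, and when vehicle replicate 2 (0.079), vehicle replicate 3 (0.0559), H2O2 replicate 1 (0.0798), H2O2 replicate 2 (0.052) or H2O2 replicate 3 (0.0724) was left out. The fold change ran from 0.84 to 1.56 over the 12 libraries left out in turn, and was highest without vehicle replicate 1. That against gRc was lost without gRc replicate 1 (0.0579), and the averaged call held without any single library, with adjusted p of at most 0.00503 in edgeR. A correction for GC content left the averaged value at 1.06 (adjusted p = 0.0161) and took away the call in each single background, at 0.94 (SE 0.41, adjusted p = 0.144) against vehicle and 1.18 (SE 0.41, adjusted p = 0.0748) against gRc. Without that correction the fold changes were 1.09 and 1.24, each with an SE of 0.28.

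**Figure D2:**
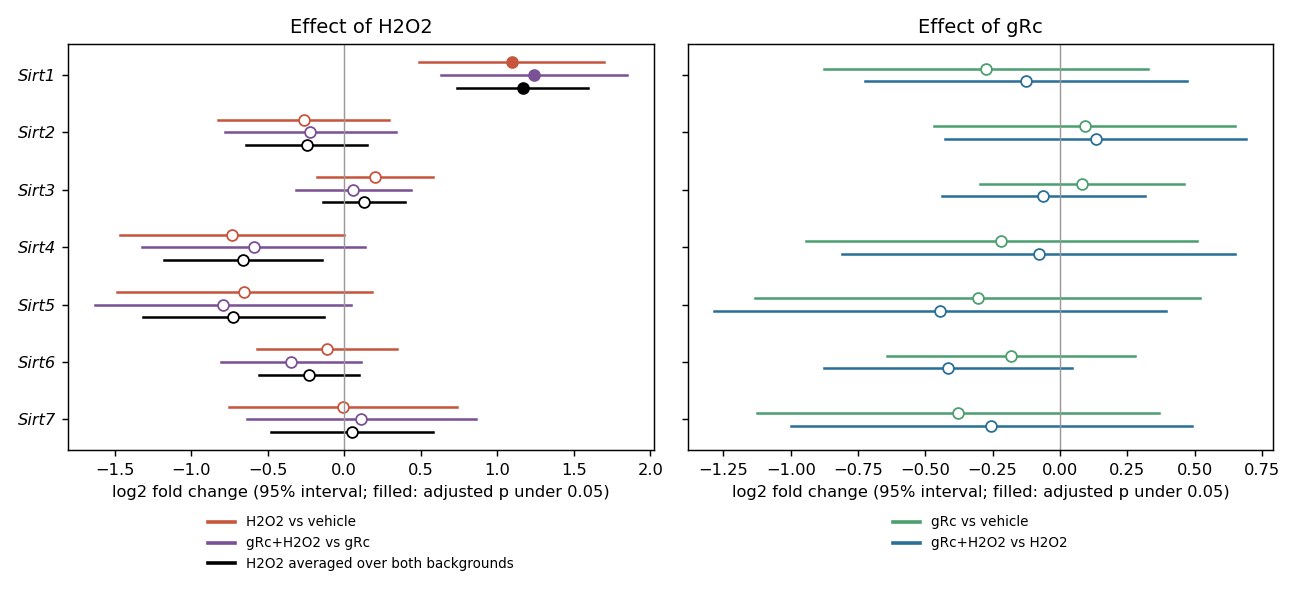
Log2 fold changes of the 7 sirtuin genes with 95% intervals from edgeR, for H2O2 (left: against vehicle, on the gRc background, and averaged) and for gRc (right: without and with H2O2). Filled points have an adjusted p under 0.05, and those of Sirt1 (1.09, 1.24 and 1.17) are the only ones, while every interval on the right crosses 0.

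Scaling by transcript length ended the Sirt1 call, and the length that RSEM assigned to the gene differed widely between libraries. The deposited length is the mean over a gene's transcripts, weighted by their estimated abundance, and for Sirt1 it was 939 bases in vehicle replicate 1, 3717 in vehicle replicate 3 and 3784 in gRc replicate 3. With the matching effective lengths as offsets, the averaged log2 fold change was 1.04 with an SE of 0.49 (adjusted p = 0.149), and with limma on log2(TPM + 0.5) it was 1.37 with an SE of 0.51 (adjusted p = 0.0754), so neither passed. Sirt1 is annotated with 7 transcripts. 4 are coding (3353 to 4430 bases), 1 is a target of nonsense-mediated decay (3458 bases) and 2 are short transcripts with a retained intron (763 and 842 bases). In the short ones 53.5% and 50.0% of the bases lie in exons of coding transcripts. Both lie inside the gene, at chr10:63331390-63336992 and chr10:63322147-63325626 in GRCm38. A boundary that each short transcript leaves unspliced is printed from the GENCODE M21 transcript sequences, minus strand, because reads across these letters come from RNA that keeps the intron, be it these transcripts or unspliced precursor. Capitals mark the intron that is kept.
ENSMUST00000131371, exon into intron, chr10:63331715-63331774: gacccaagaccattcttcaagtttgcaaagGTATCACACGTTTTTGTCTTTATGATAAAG
ENSMUST00000148516, intron into exon, chr10:63325176-63325235: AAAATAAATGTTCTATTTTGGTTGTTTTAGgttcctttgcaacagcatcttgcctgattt

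The deposited mean length bounds the share of Sirt1 fragments that RSEM gave to the short transcripts, which is an assignment and not a direct count. If all short molecules were of the shortest or of the longest kind, and the long ones likewise, the true share must lie between the resulting values. This was computed after seeing the data. The short transcripts took between 71.7% and 84.9% of Sirt1 fragments in vehicle replicate 1, between 28.7% and 37.8% in vehicle replicate 2 and at most 3.47% in vehicle replicate 3. In gRc the shares were 21.4% to 29.7%, 39.5% to 49.8% and at most 3.03% in replicates 1, 2 and 3. In H2O2 they were 37.5% to 47.5%, 20.5% to 28.8% and 40% to 50.3%, and in gRc+H2O2 17.9% to 25.8%, 13.9% to 21.5% and 27.2% to 36.2%. Libraries with a high share therefore occurred with and without peroxide, and vehicle replicate 1, the highest in total Sirt1 among libraries without H2O2, had the lowest level of long Sirt1 transcripts of all 12 by either bound.

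The long Sirt1 transcripts, which include every coding one, also stood higher in every library with H2O2 than in any without it. By the lower bound they stood at 7.74 to 23.5 CPM without H2O2 and at 35.0 to 48.3 CPM with it, and by the upper bound at 14.5 to 24.2 CPM and 42.2 to 53.3 CPM. The ratio of means was 2.55 by the lower bound and 2.50 by the upper. An exact two-sided permutation test of log2(CPM + 0.5), with H2O2 permuted within gRc status over 400 assignments, gave p = 0.005 for either bound, the smallest value it can give. The short transcripts of Sirt1 ran from 0 to 36.8 CPM without H2O2 and from 8.58 to 28.9 CPM with it by the lower bound. The same exact permutation test gave p = 0.095 for this bound and p = 0.075 for the upper one. Their ratio of means was 1.73 by the lower bound and 1.83 by the upper. On the tested log2 scale their difference was 1.99 and 1.77, against 1.39 and 1.31 for the long transcripts. A rise of the long transcripts alone was therefore not shown. These bounds rest on transcript lengths in GENCODE M21, which equalled the deposited length within 0.5 bases for 28447 of 31403 genes with a single transcript (90.6%). The assigned length of Sirt1 itself did not pass the exact test between libraries with and without H2O2 (2185 bases without, 1684 with, p = 0.46, adjusted p = 0.915), nor did that of the 5 other genes with several transcripts (adjusted p of at least 0.915).

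**Figure D3:**
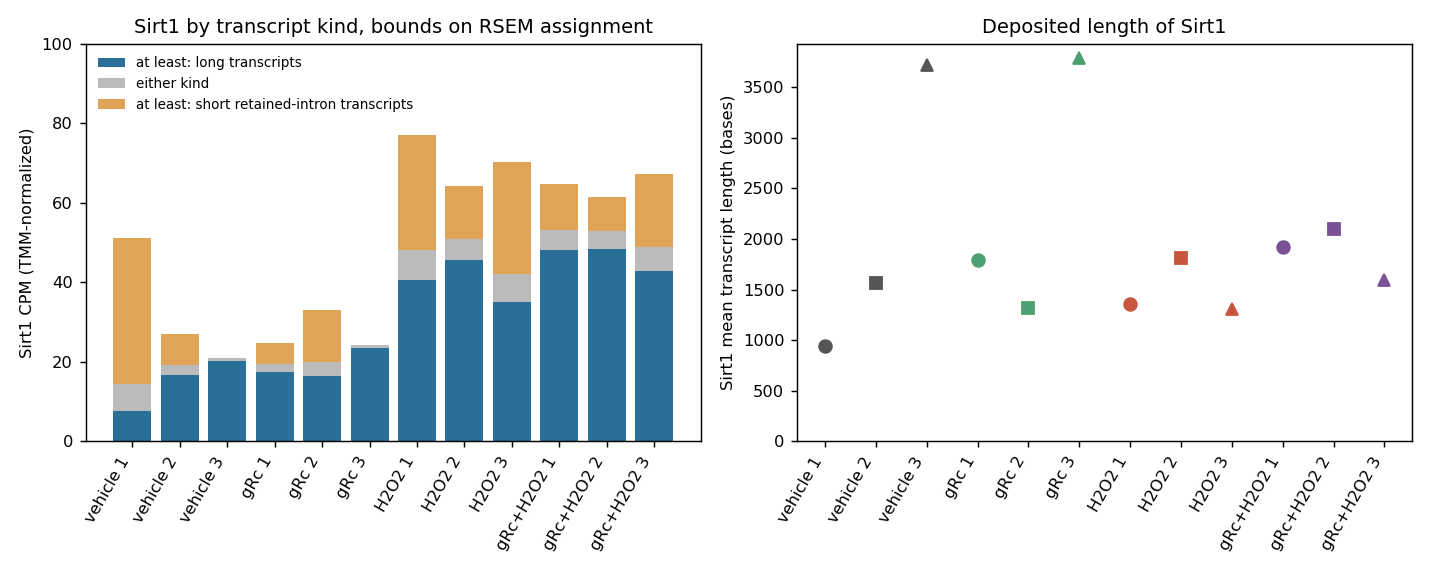
Left, Sirt1 CPM in each library split by the bounds on RSEM's assignment: at least this much to long transcripts (blue), at least this much to short retained-intron transcripts (orange) and the rest to either (grey). Right, the deposited mean length of Sirt1 in bases, from 939 in vehicle replicate 1 to 3784 in gRc replicate 3; the blue bars reach at most 23.5 CPM without H2O2 and at least 35.0 CPM with it.

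The other nuclear members and the cytosolic one did not pass the test for H2O2 in the main edgeR fit. Sirt6 encodes a chromatin deacetylase of histone H3 that restrains glycolytic genes, and ran from 17.0 to 30.1 CPM without H2O2 (median 20.7) and from 13.9 to 23.7 CPM with it (median 18.4). Its averaged log2 fold change was -0.23 (SE 0.15, adjusted p = 0.266), and the groups overlapped. Sirt2 encodes a deacetylase of tubulin. It stood at 38.0, 59.9 and 81.5 CPM in vehicle, 60.4, 49.4 and 81.5 CPM in gRc, 46.6, 54.3 and 48.5 CPM in H2O2 and 51.7, 60.3 and 51.8 CPM in gRc+H2O2. The 6 peroxide libraries lay inside the range of the others, with an averaged log2 fold change of -0.24 (SE 0.18, adjusted p = 0.334). Sirt7 encodes a deacetylase linked to ribosomal RNA transcription. It stood at 59.8, 34.2 and 21.5 CPM in vehicle, 33.1, 36.4 and 19.4 CPM in gRc, 37.5, 33.3 and 43.7 CPM in H2O2 and 31.4, 26.8 and 37.8 CPM in gRc+H2O2. Here too the peroxide libraries lay inside the range of the others (0.05, SE 0.24, adjusted p = 0.897).

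The replicate spread of Sirt2 and Sirt7 followed an axis that set libraries apart across all genes. Component 1 of log2 CPM held 43.1% of the variance, with vehicle replicate 1 at -68.6, vehicle replicate 3 at 82.3, gRc replicate 3 at 84.2 and the other 9 between -44.9 and 22.8. GC-poor genes stood 0.90 log2 units below GC-rich ones in vehicle replicate 1 and 0.51 above in gRc replicate 3, each relative to the mean over libraries. Across the 12 libraries, which share this composition, log2 CPM correlated with component 1 at r = 0.97 for Sirt2 and -0.96 for Sirt7. The values were -0.65 for Sirt1, -0.63 for Sirt6, -0.52 for Sirt4, -0.45 for Sirt5 and -0.01 for Sirt3. With the gap between GC-poor and GC-rich genes, r was -0.93 for Sirt7, -0.88 for Sirt6 and 0.84 for Sirt2. It was -0.72 for Sirt4, -0.70 for Sirt5, -0.33 for Sirt1 and 0.005 for Sirt3. Sirt2 and Sirt7 correlated with each other at -0.95. The part of component 1 or of the GC gap in the levels of these genes was not tested. A fit without vehicle replicates 1 and 3 and gRc replicate 3 left vehicle replicate 2 alone in its group. There the averaged log2 fold change of Sirt1 was 1.26.

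**Figure D4:**
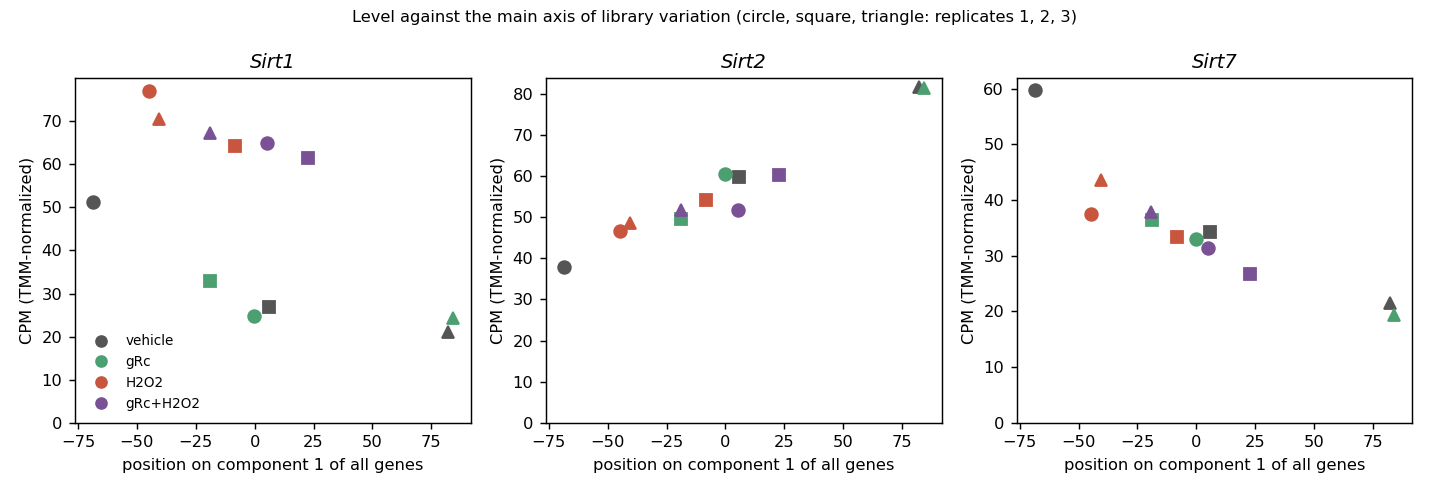
CPM of Sirt1, Sirt2 and Sirt7 against the position of each library on component 1 of all genes, colored by group. Sirt2 (r = 0.97) and Sirt7 (r = -0.96) follow the axis whatever the group, and Sirt1 lies in an upper band of libraries with H2O2 (61.5 to 77.1 CPM) and a lower band without.

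Of the mitochondrial members, Sirt4 and Sirt5 had lower values with H2O2 that missed the threshold, and Sirt3 showed little spread of any kind. Sirt4 encodes an ADP-ribosyltransferase and lipoamidase that restrains glutamate and pyruvate entry. It stood at 18.5, 12.6 and 7.24 CPM in vehicle, 11.3, 14.7 and 6.94 CPM in gRc, 8.34, 7.36 and 7.32 CPM in H2O2 and 6.84, 6.47 and 8.49 CPM in gRc+H2O2. The third replicates of vehicle and gRc lay among the peroxide libraries and the other 4 above them all. The averaged log2 fold change was -0.66 (SE 0.23, edgeR adjusted p = 0.0528). It passed in DESeq2 (adjusted p = 0.0297), with a minimum of 10 counts in every library (0.0483), with the GC correction (0.0429), and without vehicle replicate 3 (0.0102) or gRc replicate 3 (0.0195). The same kind of bound was taken for Sirt4 as a share of molecules, not of fragments as for Sirt1. Given the M21 lengths, RSEM assigned at least 49.5% of Sirt4 molecules in every library to its 4 non-coding transcripts. These are 599 to 853 bases long. In every library the lower bound on their share of Sirt4 fragments was smaller than that on molecules.

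Sirt5 encodes a desuccinylase and demalonylase, has 1 annotated transcript and was the lowest by mean TPM. It stood at 9.54, 3.84 and 3.64 CPM in vehicle, 5.32, 5.16 and 3.21 CPM in gRc, 4.57, 2.88 and 3.31 CPM in H2O2 and 3.20, 2.30 and 2.38 CPM in gRc+H2O2, from 63 to 172 counts per library. On the gRc background the groups did not overlap, by a narrow margin, and vehicle replicate 1 was well above every other library. The averaged log2 fold change was -0.72 (SE 0.27, edgeR adjusted p = 0.0616). It passed in DESeq2 (adjusted p = 0.037), with the replicate number as a block (0.0242), without those same 3 libraries (0.0432), and without vehicle replicate 2 (0.0459), vehicle replicate 3 (0.0299) or gRc replicate 3 (0.0412). For gRc+H2O2 against gRc alone it was -0.79 (SE 0.38, adjusted p = 0.2). A fit without vehicle replicates 1 and 3 and gRc replicate 3 left vehicle replicate 2 alone in its group and gave -1.002. In the other alternatives it passed only without vehicle replicate 1 (0.0492). The value against vehicle rested on vehicle replicate 1: for H2O2 against vehicle it was -0.65 (SE 0.38) and without that library -0.059 (SE 0.28, adjusted p = 0.897). The averaged value was then -0.43 (adjusted p = 0.103), and over the 12 libraries left out in turn its adjusted p ran up to 0.131. Sirt3, the main mitochondrial deacetylase, lay between 4.74 and 5.96 CPM without H2O2 and between 4.77 and 6.70 CPM with it. Its averaged log2 fold change was 0.13 (SE 0.12, 95% interval -0.14 to 0.40).

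No sirtuin gene passed for gRc. For gRc+H2O2 against H2O2, edgeR called 0 of the 7 and DESeq2 0, and 0 reached an unadjusted p under 0.05, where the background was 0% of genes in edgeR (122 at an unadjusted p under 0.05) and 2 genes in DESeq2. For gRc against vehicle edgeR called 0 of the 7 and DESeq2 0, again with 0 at an unadjusted p under 0.05, and the background was again 0% (74 genes at an unadjusted p under 0.05, 0 in DESeq2). The groups overlapped for all 7 genes in both comparisons, where 15.3% of all genes did not overlap for gRc+H2O2 against H2O2 and 1.61% for gRc against vehicle. For Sirt1 the log2 fold change was -0.27 (95% interval -0.88 to 0.33) for gRc and -0.13 (-0.73 to 0.47) for gRc before H2O2. Without vehicle replicate 1 the value for gRc turned to 0.19 (SE 0.17). With effective-length offsets the value for gRc before H2O2 was -0.49 (SE 0.69) and with limma -0.42 (SE 0.72), so the limits on a change were much wider there. The smallest unadjusted p for gRc was that of Sirt6 with gRc before H2O2, at -0.42 (SE 0.21, edgeR adjusted p = 0.922), from 23.7, 18.2 and 23.3 CPM in H2O2 to 16.3, 13.9 and 18.6 CPM in gRc+H2O2, with overlap. The effect of H2O2 on Sirt1 was not shown to differ with gRc: the interaction was 0.15 (SE 0.39, 95% interval -0.70 to 0.99, adjusted p = 1), and edgeR and DESeq2 each called 0 of the 7 genes for it, 0 of which had an unadjusted p under 0.05 in edgeR (background 0%, 87 genes at an unadjusted p under 0.05 in edgeR and 1 called in DESeq2).

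The genes around the sirtuins were followed in 8 lists drawn from textbook roles, of which 127 genes were tested, some of them in 2 lists. Averaged over both backgrounds, 39 of the 127 passed for H2O2, beside 31% of all tested genes. In the single backgrounds 15 passed against vehicle and 20 for gRc+H2O2 against gRc, beside 15.7% of all tested genes in each. Of those named below, Nmnat3, Tnks2, Parp3, Parp14, Trp53, Hdac5, Hdac9, Kat6a, Bloc1s1, Mlycd, Idh2, Ogdh and Lonp1 passed only on average. For gRc, 0 of the 127 passed in edgeR with or without H2O2, and 0 had an unadjusted p under 0.05. The median log2 fold change of all genes for the average was -0.05. Values below are this averaged effect of H2O2.

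NAD+, the substrate of every sirtuin, is made in muscle mainly by salvage from nicotinamide. Of 11 tested genes of NAD+ synthesis, 2 rose and 3 fell, with a median of -0.21. Nampt, the rate-limiting salvage enzyme, rose by 0.60 (SE 0.12, adjusted p = 0.00292), from 30.8 ± 1.65 CPM in vehicle to 42.9 ± 6.31 in H2O2 and from 29.1 ± 5.86 in gRc to 47.8 ± 1.37 in gRc+H2O2. Nmnat2, the cytosolic and Golgi enzyme of the last step, rose by 0.64 (SE 0.12), while Nmnat3, its mitochondrial counterpart, fell by 0.79 (SE 0.23). Nmnat3 was low, with group means of 1.03 CPM in vehicle, 0.96 in gRc, 0.53 in H2O2 and 0.61 in gRc+H2O2. It passed in neither single background (edgeR adjusted p = 0.087 against vehicle and 0.22 against gRc). Nt5e, the ectoenzyme CD73 that can process NAD+ precursors, fell by 1.17 (SE 0.26). Of 15 other NAD+ users 2 rose and 1 fell (median -0.10), and 0 passed in either single background. Tnks2, a tankyrase, rose by 0.64 (SE 0.17) and Parp14 by 0.45 (SE 0.15), and Parp3, a DNA repair enzyme, fell by 1.05 (SE 0.34). Parp1, a main NAD+ consumer on DNA damage, was at -0.14 (SE 0.15, adjusted p = 0.527).

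Of 22 genes whose products act on sirtuins or work with them, 4 rose and 1 fell (median 0.11). Nrf1, whose protein reads the GCGCATGCG site printed for Sirt6 and Sirt7, rose by 0.63 (SE 0.10), from 18.4 ± 2.15 CPM in vehicle to 27.8 ± 1.68 in H2O2 (SD, n = 3), whereas Sirt6 and Sirt7 did not pass. Foxo3, a substrate and transcriptional partner of SIRT1, rose by 0.57 (SE 0.10) and Trp53, another SIRT1 substrate, by 0.39 (SE 0.12). Rarb, a retinoic acid receptor gene, fell by 1.21 (SE 0.20). Ccar2, whose product inhibits SIRT1, was at -0.19 (SE 0.18, adjusted p = 0.466). Ppargc1a, which encodes PGC-1α, was expressed at no more than 1.43 CPM in every library and stood at -0.82 (SE 0.32, adjusted p = 0.0717).

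Lysine acetylation also depends on the zinc-dependent deacetylases and on the acetyltransferases. Of 11 tested histone deacetylase genes 1 rose and 3 fell (median -0.21). Hdac4 rose by 0.84 (SE 0.13) and the other class IIa members Hdac5 and Hdac9 fell by 0.64 (SE 0.22) and 0.45 (SE 0.13), as did Hdac6, which shares tubulin with SIRT2, by 0.49 (SE 0.11). Of 12 acetyltransferase genes 1 rose and 2 fell (median 0.11). Kat2b, which encodes the MyoD acetyltransferase PCAF, fell by 1.25 (SE 0.10, adjusted p = 8.05e-06), from 41.4 ± 3.33 CPM in vehicle to 18.9 ± 0.555 in H2O2 and from 46.6 ± 5.84 in gRc to 18.0 ± 1.68 in gRc+H2O2. Bloc1s1, which has been linked to mitochondrial protein acetylation, fell by 0.57 (SE 0.19) and Kat6a rose by 0.35 (SE 0.09).

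Sirtuin substrates were split by compartment. Of 24 genes of nuclear or cytosolic ones 7 rose and 6 fell (median 0.11). Polr1e, the RNA polymerase I subunit deacetylated by SIRT7, rose by 0.99 (SE 0.09), from 13.4 ± 0.575 CPM in vehicle to 27.0 ± 1.79 in H2O2, and Gabpb1, another SIRT7 substrate, rose by 1.00 (SE 0.16). G6pdx, the pentose phosphate enzyme deacetylated by SIRT2, rose by 0.82 (SE 0.12). Acss2, an acetyl-CoA synthetase, fell by 1.20 (SE 0.16). Of 24 mitochondrial ones 2 rose and 4 fell (median -0.10). In the single backgrounds 0 of the 24 passed against vehicle and 1 for gRc+H2O2 against gRc. Mlycd, the malonyl-CoA decarboxylase that SIRT4 deacetylates, fell by 0.81 (SE 0.19), Idh2, a SIRT3 substrate, by 0.44 (SE 0.11) and Ogdh by 0.31 (SE 0.08), and Lonp1, a matrix protease, rose by 1.12 (SE 0.29). Of 12 glycolytic genes at which SIRT6 has been found, 2 rose and 0 fell (median 0.01). These were Slc2a1, the glucose transporter GLUT1 gene, at 1.71 (SE 0.10) and Hk2, the muscle hexokinase gene, at 1.72 (SE 0.20), while the RNA of Sirt6 itself did not pass.

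**Figure D5:**
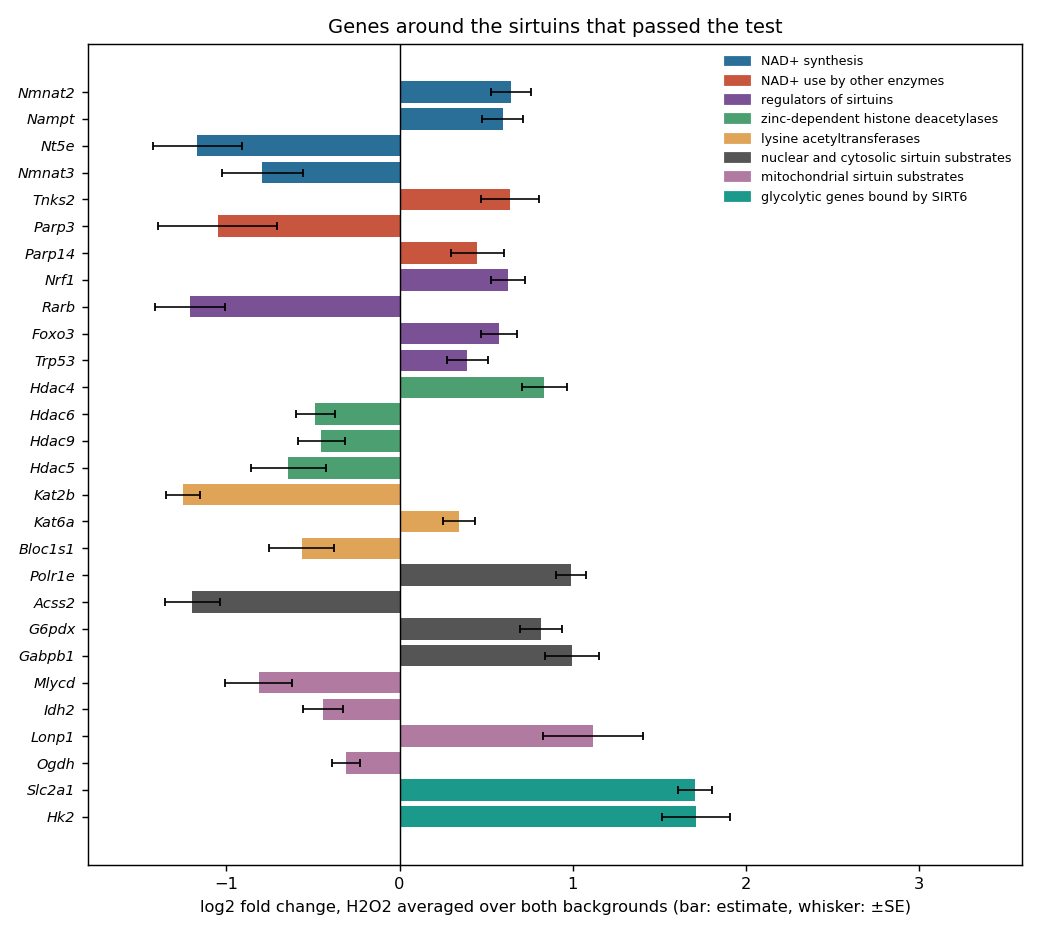
Averaged log2 fold changes with H2O2 (bars, whiskers ±SE) of up to 4 genes from each of 8 lists that passed the test, colored by list. The largest bars to the right are Hk2 (1.72) and Slc2a1 (1.71), and the largest to the left are Kat2b (-1.25) and Rarb (-1.21).

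Some sirtuin counts may hold reads of a neighbour, since whether RSEM was run with strand is not given in the sources used here. In GRCm38, Sirt1 (chr10:63319005-63381704, minus strand) contains the antisense gene Gm16145. This annotated gene begins upstream of the RefSeq start whose promoter is printed above (chr10:63338986-63339285). Gm16145 (chr10:63353853-63366887) lies upstream of that promoter. Sirt2 (chr7:28766735-28788661, plus strand) overlaps Nfkbib on the opposite strand, and Sirt3 (chr7:140863666-140882309, minus strand) overlaps Ric8a and Psmd13 on the opposite strand. Sirt7 (chr11:120618372-120625240, minus strand) overlaps Mafg and Mir6936 on its own strand. Sirt4 (chr5:115478010-115484725, minus strand), Sirt5 (chr13:43365496-43395203, plus strand) and Sirt6 (chr10:81621785-81627797, minus strand) overlap no annotated gene.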

How the data were processed

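The authors trimmed paired-end reads with Trim Galore after a check with FastQC, aligned them with STAR (2.7.3a) to GRCm38 and quantified genes with RSEM (1.3.3). The deposited expected counts are fragments assigned per gene, not normalized, and the deposited TPM are RSEM's abundances per transcript length. The deposited length and effective length are means over a gene's transcripts. Library totals ran from 19274762 to 31409066. Members and lists were chosen with earlier results of these data known.

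Expected counts were rounded, filtered with filterByExpr (14838 genes) and fitted with edgeR 4.0.16 (quasi-likelihood, TMM, all 12 libraries, biological coefficient of variation 0.295). An adjusted p under 0.05 passed. Each SE was derived from the fold change and its F statistic. Tests ran in R 4.3.3, with DESeq2 1.42.0 and limma 3.58.1 as alternatives, and in Python 3.11.15 with scipy 1.17.1. They were tested on simulated data. Per list, up to 4 genes with the smallest p were named, and Nampt, Ccar2, Ppargc1a and Parp1 always.

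Other alternatives were size factors, filters, a fit of only the groups compared, effective-length offsets, a GC spline, mitochondrial genes left out and libraries left out. The labels number replicates in each group. Deviations of same-numbered libraries correlated at 0.460, 0.271 and 0.860 for gRc and vehicle, which were taken as paired, and in no other comparison were all 3 above the required 0.1.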

Additional observations from a re-analysis of the deposited data

How the results depend on the processing

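No result for gRc or for the interaction changed its count of 0 sirtuin genes under any alternative. The fit without vehicle replicates 1 and 3 and gRc replicate 3 left vehicle replicate 2 alone in its group, and its calls for H2O2 are left out here. For H2O2 against vehicle the count of 1 became 0 with only the groups compared, effective-length offsets, limma, the GC correction, or the GC correction with the replicate block. It ran from 0 to 1 over single libraries left out. Sirt1 lost the call in 5 of these 12 runs and Sirt4 passed in 1 (edgeR adjusted p = 0.0442), so the count of 1 was not always Sirt1. For gRc+H2O2 against gRc it became 0 with effective-length offsets, limma, the GC correction alone or with the replicate block, and 4 without those 3 libraries, where calls over all genes also rose, from 2332 of 14838 to 5153 of 15398, and ran from 0 to 2. For the average it became 3 in DESeq2 (5261 genes called, against 4596), 2 with at least 10 counts in every library, 2 with the replicate block (Sirt5 -0.68, adjusted p = 0.0242), 0 with effective-length offsets or limma, and 2 with the GC correction alone or with the block. Over single libraries left out it ran from 1 to 3. The replicate block changed no call for gRc against vehicle, where the numbers pair the libraries. The order of levels moved for 2 genes per longest coding transcript. The causes were not tested.

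The following values, none of them past the threshold in edgeR, turned direction. With the replicate block Sirt7 was at 0.065 for H2O2 against vehicle, with the GC correction at 0.047, and with both at 0.10. With effective-length offsets Sirt2 was at -0.058 for gRc before H2O2 and -0.054 for gRc, and Sirt7 at -0.17 for the average. With limma Sirt2 was at -0.0067 and Sirt3 at 0.033 for gRc before H2O2, Sirt7 at -0.039 for the average and the Sirt1 interaction at -0.036. Without the 3 libraries, Sirt6 was at 0.069 and Sirt7 at 0.14 for H2O2 against vehicle, the Sirt1 interaction was at -0.22, and for gRc against vehicle the values were 0.093 for Sirt1, -0.13 for Sirt2, 0.041 for Sirt4, 0.44 for Sirt5, 0.13 for Sirt6 and 0.013 for Sirt7. Over single libraries left out, H2O2 against vehicle ran from -0.50 to 0.0095 for Sirt2, -0.24 to 0.11 for Sirt6 and -0.32 to 0.46 for Sirt7. The averaged value of Sirt7 ran from -0.11 to 0.29, Sirt3 with gRc before H2O2 from -0.15 to 0.057, and the Sirt1 interaction from -0.32 to 0.39. For gRc against vehicle they ran from -0.53 to 0.19 for Sirt1, -0.15 to 0.37 for Sirt2, -0.51 to 0.15 for Sirt4, -0.56 to 0.29 for Sirt5, -0.33 to 0.037 for Sirt6 and -0.68 to 0.089 for Sirt7. Depth was lowest for Sirt5 (63 to 172 counts per library) and Sirt3 (93 to 194), and its part in their errors was not tested.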

Other observations

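By Pearson r of log2 CPM over the 12 libraries, with genes averaging under 2 on that scale left out, the profile most like that of Sirt1 was that of Rai14 (r = 0.996) and then Psrc1 (r = 0.992). Rai14 rose by 0.87 (SE 0.15, edgeR adjusted p = 0.00109) and Psrc1 by 1.67 (SE 0.28, adjusted p = 0.00106) in the averaged comparison. Nearest to Sirt5 were Tm4sf1 (r = 0.989) and Arl6ip5 (r = 0.977), and nearest to Sirt4 were Tsc22d4 (r = 0.974) and Armcx1 (r = 0.974). Tm4sf1 fell by 0.80 (SE 0.24, adjusted p = 0.0254) and Armcx1 by 0.64 (SE 0.21, adjusted p = 0.0383), and the other 2 did not pass. Nearest to Sirt2 were Nipsnap2 (r = 0.987) and Prkra (r = 0.986), and nearest to Sirt7 were Rundc1 (r = 0.990) and Ppp1r12c (r = 0.986). Sirt6 was nearest to Mrpl11 (r = 0.958) and Hes6 (r = 0.957). Sirt3 had no close match, with Klhl25 (r = 0.771) and Ube2h (r = 0.763) as its nearest. All 12 libraries share the composition axis described for Sirt2 and Sirt7, and these values are descriptions over the same libraries.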
